A study of Cavia porcellus with 12 samples.

Results

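The genes of cholesterol synthesis that act from lanosterol onwards were followed in the liver of guinea pigs with NASH and of controls. The set held 9 genes, *LSS*, *CYP51A1*, *TM7SF2*, *MSMO1*, *NSDHL*, *HSD17B7*, *EBP*, *SC5D* and *DHCR7*, taken by their human orthologue symbols and kept in pathway order, out of 11896 symbols in all. All animals were female Dunkin Hartley guinea pigs from the same breeder and of the same starting age. Controls (n = 6) had received chow for 25 weeks, and guinea pigs with NASH (n = 6) had received for the same time a high-fat diet that also carried sucrose and cholesterol. The NASH animals had been chosen for bridging fibrosis and the controls at random among animals free of NASH and fibrosis, so that diet and disease cannot be told apart in these groups. Snap-frozen tissue of the left lateral lobe, from livers that had not been perfused, was read by stranded mRNA sequencing, and each animal gave its own library.

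Cholesterol is built from acetyl-CoA through mevalonate and squalene, and lanosterol is the first sterol of the route. The later steps take place in the endoplasmic reticulum, where extra methyl groups are cut off the ring system, a double bond is moved and others are reduced. Most of these genes are known targets of the transcription factor SREBP-2, which is held back in the endoplasmic reticulum when the membrane is rich in sterol. The liver is a main site of this synthesis and takes up dietary cholesterol as well.

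All 9 genes fell in NASH, by between 1.12 (*LSS*) and 2.67 (*MSMO1*) on the log2 scale, and the median log2 fold change was −1.81. The threshold was a Benjamini-Hochberg adjusted p-value under 0.05 from edgeR over all symbols. Over all genes tested the median was 0.00, and 26.0% were lower, 27.9% higher and thus 53.9% changed in NASH at this threshold. All 9 genes also passed it with a log2 fold change of −1 or less, as did 5.35% of all genes. With library size alone *LSS* (−0.65) and *TM7SF2* (−0.76) no longer reached −1. When the test asked for a change of more than 1 on the log2 scale, 7 of the 9 passed (all but *LSS* and *TM7SF2*), and 2.08% of all genes were lower in this test. In 8 of the 9 genes every animal with NASH was below every control in CPM (counts relative to an animal's library size after TMM scaling), whereas 15.3% of all genes showed this. The exception was *SC5D*. The summed level of the 9 genes lay between 687.7 and 1526.4 CPM in controls and between 295.4 and 344.5 CPM in NASH. In whole liver, fewer cells of a type and less RNA per cell cannot be told apart.

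**Figure D1:**
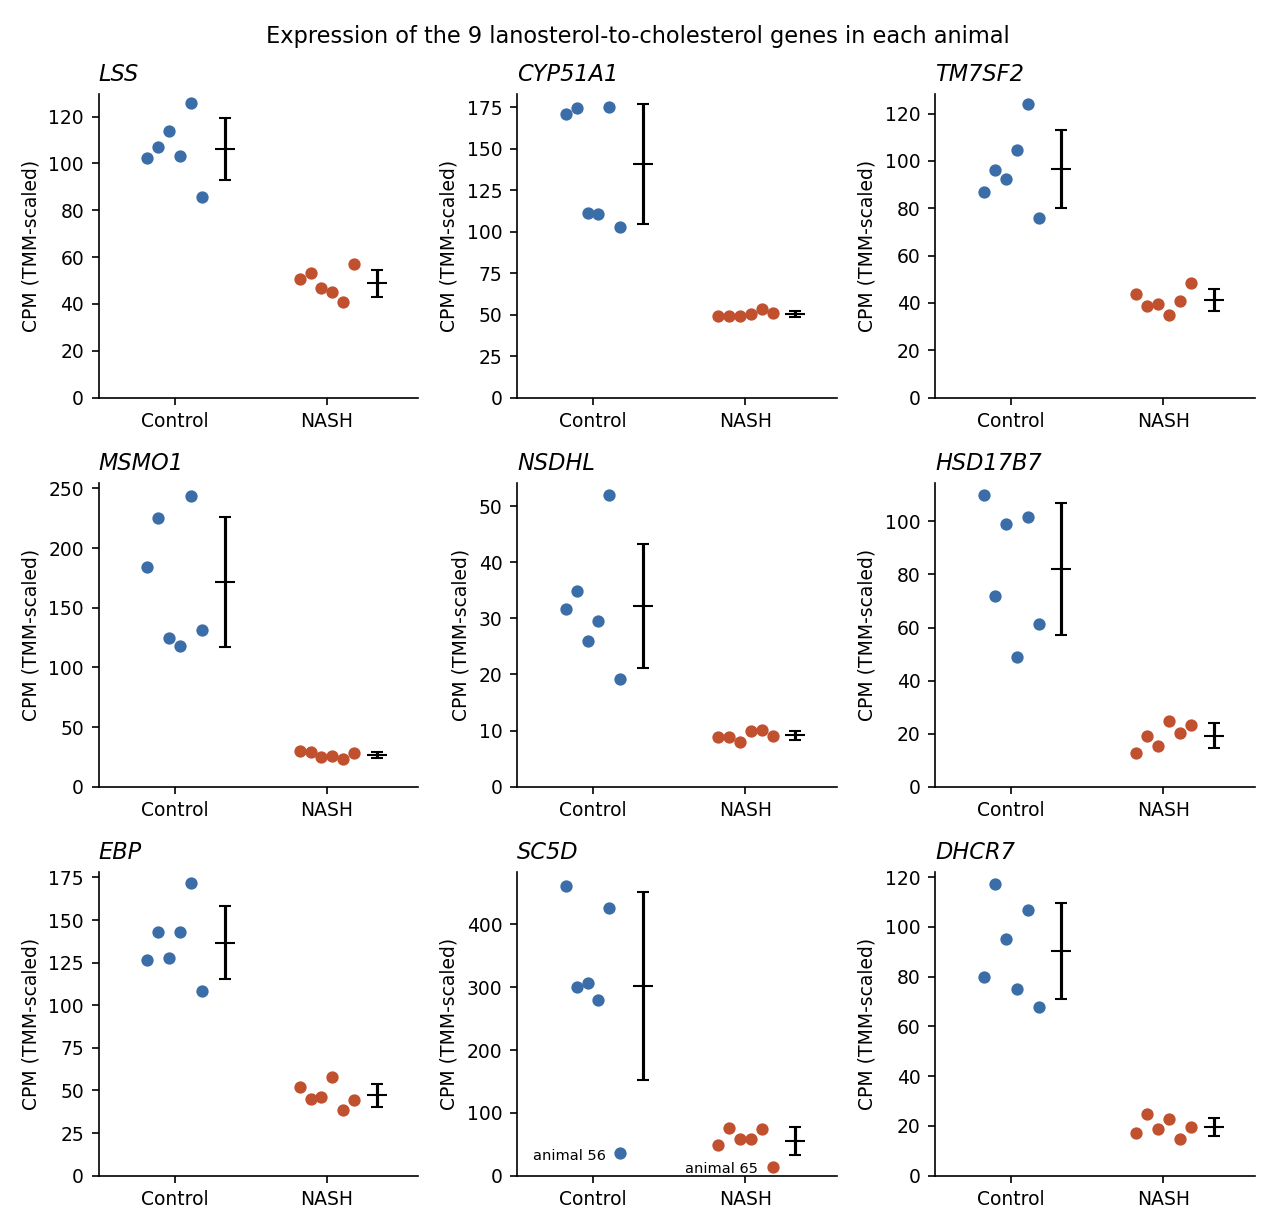
Expression of each gene in CPM (vertical axes, linear and starting at 0) in the 6 controls (blue) and the 6 guinea pigs with NASH (red). Points are animals and the bars beside them give the mean ± SD. The groups lie apart in 8 panels, and in the panel of *SC5D* control animal 56, at 35.6 CPM, lies among the animals with NASH.

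*LSS*, lanosterol synthase, closes the chain of squalene epoxide into the ring system of lanosterol. It ranged from 85.6 to 125.6 CPM in controls (median 105.0) and up to 56.9 CPM in NASH (median 48.6), from 38.6 to 53.5% of the control mean. The groups did not overlap, and log2 expression changed by −1.12 (SE 0.10, adjusted p = 1.86e-06 from edgeR), the smallest size in the set. *CYP51A1*, a cytochrome P450, then removes a methyl group where rings of lanosterol join. In controls it formed a high trio, animals 5, 10 and 45 at 171 to 175 CPM, and a low trio, animals 31, 32 and 56 at 103 to 111 CPM. In NASH it hardly varied, between 48.9 and 53.2 CPM. Its log2 fold change was −1.48 (SE 0.15, adjusted p = 3.81e-06 from edgeR). *TM7SF2* reduces the double bond that the P450 leaves behind. It ranged from 75.9 to 124.0 CPM in controls (median 94.2) and from 35.0 to 48.5 CPM in NASH (median 40.2), and the fitted log2 difference was −1.24 (SE 0.12, adjusted p = 2.38e-06 from edgeR). The count row of *TM7SF2* also carries the symbol *VPS51*, a gene of vesicle tethering, so reads of these genes cannot be told apart. In mean CPM, the NASH level of this first trio of steps was 46.0% (*LSS*), 35.8% (*CYP51A1*) and 42.5% (*TM7SF2*) of the control level.

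The next 3 enzymes remove the methyl groups of the outer ring as a complex. *MSMO1*, the methylsterol oxidase, ranged from 118.1 to 243.9 CPM in controls (median 157.7) and from 23.1 to 29.7 CPM in NASH (median 27.3). The lowest control was thus far above the highest animal with NASH. Its mean in NASH was 15.7% of that in controls and the fitted log2 difference −2.67 (SE 0.19, adjusted p = 3.69e-07 from edgeR), which placed it at rank 45 from the lowest of 11896 genes. Within controls *MSMO1* was high in the same animals as *CYP51A1*, namely animals 5, 10 and 45. *NSDHL*, the decarboxylating dehydrogenase of the complex, ranged from 19.1 to 52.0 CPM in controls (median 30.6) and from 8.03 to 10.1 CPM in NASH (median 9.01). Its log2 fold change was −1.81 (SE 0.19, adjusted p = 7.11e-06 from edgeR), and 245 to 397 counts stood behind each value in NASH. *HSD17B7* reduces the ketone that is left. It ranged from 48.8 (animal 32) to 109.8 CPM (animal 5) in controls (median 85.3) and from 12.6 to 24.9 CPM in NASH (median 19.7). Both groups varied by about the same factor, 2.25 between the lowest and the highest control and 1.97 in NASH, and did not overlap. Its log2 fold change was −2.09 (SE 0.22, adjusted p = 7.89e-06 from edgeR).

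*EBP*, the isomerase that shifts the remaining ring double bond, ranged from 108.2 to 171.8 CPM in controls (median 135.4) and from 38.3 to 57.8 CPM in NASH (median 45.6). The groups did not overlap, and the log2 fold change was −1.53 (SE 0.12, adjusted p = 6.61e-07 from edgeR). Its count row carries the symbol *AF196969.1* as well. *DHCR7*, which reduces that double bond once *SC5D* has acted and whose loss causes Smith-Lemli-Opitz syndrome in humans, ranged from 67.6 to 117.1 CPM in controls (median 87.4). In NASH it ranged from 14.8 to 24.6 CPM (median 19.2), 21.8% of the control mean. The groups did not overlap, and its log2 fold change was −2.20 (SE 0.16, adjusted p = 3.79e-07 from edgeR).

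*SC5D*, the desaturase that adds a further double bond to the ring, differed from the other genes in its spread. Of the controls, 5 lay between 280.2 and 461.9 CPM, and animal 56 lay at 35.6 CPM, or 11.6% of their median. Of the animals with NASH, 5 lay between 49.6 and 76.4 CPM, and animal 65 lay at 14.4 CPM, or 24.4% of their median. Control 56 was therefore below 5 of the 6 animals with NASH. These low values rested on 529 and 412 counts. In the same animals the other 8 genes were at 60.0 to 80.2% (control 56) and at 96.0 to 123% (NASH 65) of the median of the other animals of the group. *SORL1*, whose locus is numbered just before that of *SC5D* in the count table, was at 105% and 80.5%. With all animals the log2 fold change of *SC5D* was −2.45 (SE 0.51, adjusted p = 0.00146 from edgeR). Without both low animals, a comparison added after their values were seen, it was −2.48 (adjusted p = 2.73e-06 from edgeR).

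**Figure D2:**
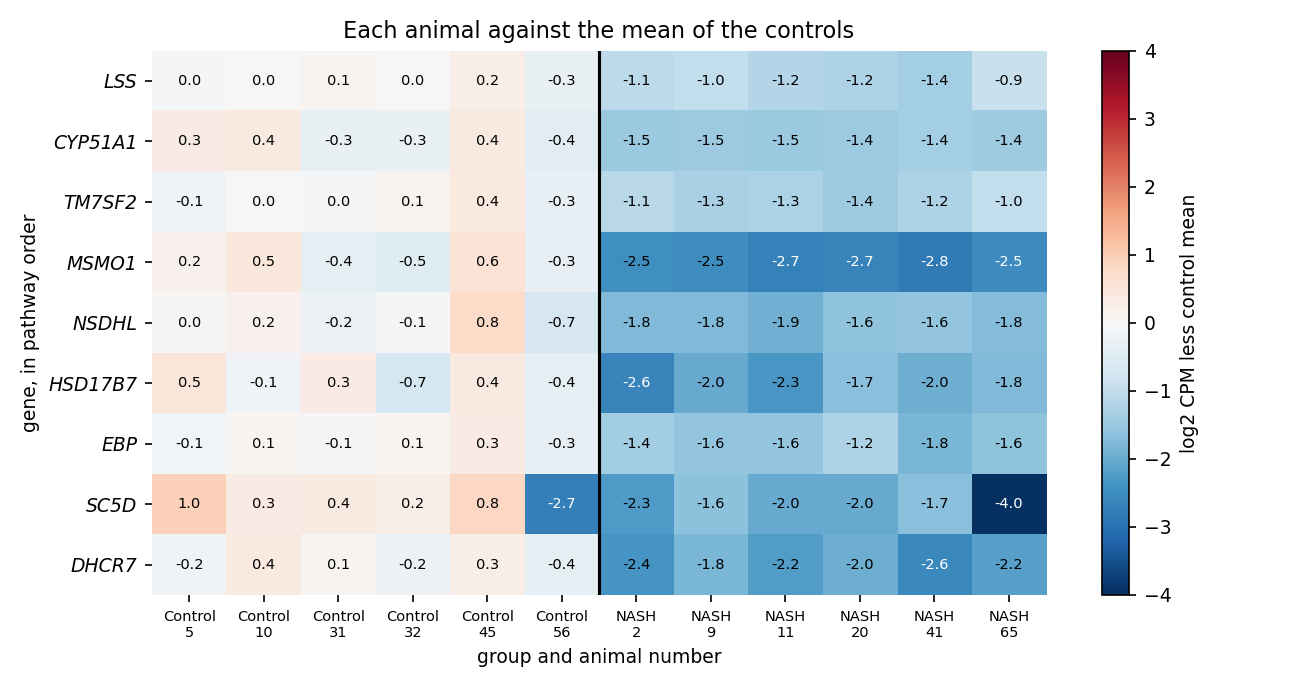
Level of each gene (rows, in pathway order) in each animal (columns, controls left of the line and NASH right of it) as log2 CPM less the mean of the controls. Blue is lower and red is higher. All members are blue in NASH, and *SC5D* stands out in control 56 and NASH 65.

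Among controls, animal 45 had the highest level of the group in 6 of the 9 genes, and animal 56 had the lowest in 7. Relative to the median of all controls, the median over the 9 genes was 1.27 in animal 45 and 0.77 in animal 56. In NASH no animal stood out in this way, with medians between 0.98 and 1.02. Control 45 also had the largest library of the controls (28636467 counts) and control 56 the smallest (16980274 counts). Control 5, with 17414347 counts, had a median of 1.04. The part of depth was not tested. The SD of log2 CPM was smaller in NASH than in controls in all 9 genes, and in 63.8% of all genes tested. For *CYP51A1* it was 0.04 in NASH and 0.38 in controls, and for *MSMO1* 0.14 and 0.46. For *LSS* it was 0.17 and 0.18. On the deposited rlog scale, which draws the values of noisy genes together, the differences between groups were between −0.71 (*LSS*) and −1.65 (*MSMO1*).

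Hepatocytes are the main site of this pathway, and some markers of other cell types differed between the groups as well. Of 6 hepatocyte markers found, 5 were lower in NASH and none was higher, with log2 fold changes from −2.20 (*TTR*) to −0.58 (*APOB*), and 3 were lower with library size alone. Their summed level was 96739.2 to 118039.3 CPM in controls and 39803.1 to 60789.2 CPM in NASH, and none was at 0 in any animal. All 5 cholangiocyte markers rose (summed level 73.2 to 114.9 CPM in controls and 301.5 to 539.0 CPM in NASH), as did all 6 erythroid markers (58.6 to 175.8 and 437.4 to 4597.2 CPM). Of 8 stellate cell markers, 5 rose and 1 fell (none with library size alone, 242.7 to 353.1 and 649.1 to 1569.3 CPM). Of 6 macrophage markers, 3 rose (4 with library size alone) and 1 fell (258.0 to 446.9 and 792.6 to 1009.7 CPM), and of 6 T cell markers, 2 rose (3 with library size alone) and 1 fell (58.2 to 112.8 and 45.4 to 71.3 CPM). Most of the T cell sum was *CD3E*, the gene that fell, with a median of 62.9 CPM in controls and 31.1 CPM in NASH. *SLC4A1* and *TREM2* were at 0 counts in at least 1 animal, and no other marker of these lists was. The part of the other cell types in the fall of the 9 genes was not tested.

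Each gene was also set against the mean log2 CPM of the 6 hepatocyte markers within each animal, which itself was 1.12 lower in NASH. On this scale *MSMO1* was lower by 1.49 and *DHCR7* by 1.07, in both cases without overlap of the groups (p = 0.00216 in a two-sided exact permutation test, which cannot give less with 6 animals in each group). *HSD17B7* fell by 0.94 (exact permutation p = 0.00433), *NSDHL* by 0.62 (exact permutation p = 0.0108) and *EBP* by 0.41 (exact permutation p = 0.0498). The difference was −0.32 for *CYP51A1* (exact permutation p = 0.0649), −0.11 for *TM7SF2* (exact permutation p = 0.381) and 0.00 for *LSS* (exact permutation p = 1). For *SC5D*, with its low animals, it was −1.16 (exact permutation p = 0.13). The markers differed among themselves, and *TTR* fell by as much as *DHCR7* did (log2 fold change −2.20 for both). These p-values were not adjusted.

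Whether some members fell further than others was compared through the log2 ratio of 2 genes within an animal, a quantity that does not depend on the scaling of the library. Of the 36 pairs, 19 differed between groups with a two-sided exact permutation p-value under 0.05, and 15 after adjustment over the pairs. *MSMO1* fell further than *LSS* by 1.49, than *TM7SF2* by 1.39, than *CYP51A1* by 1.17, than *EBP* by 1.08 and than *NSDHL* by 0.87 on the log2 scale, each without overlap of the groups (exact permutation p = 0.00216, adjusted p = 0.0111). It was therefore set apart from *NSDHL*, its partner in the same complex, while against *HSD17B7*, the other partner, the difference was 0.55 (exact permutation p = 0.0519, adjusted p = 0.0935). *DHCR7* fell further than *LSS* by 1.07 and than *TM7SF2* by 0.96, again without overlap (exact permutation p = 0.00216, adjusted p = 0.0111). Neighbours in the order *MSMO1*, *SC5D*, *DHCR7*, *HSD17B7*, *NSDHL*, *EBP*, *CYP51A1*, *TM7SF2*, *LSS* did not differ beyond their spread, with exact permutation p-values from 0.201 to 0.848. No pair with *SC5D* passed the threshold, and the intervals of its differences were wide, from −0.29 to 2.60 (95%) against *LSS*, for example.

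**Figure D3:**
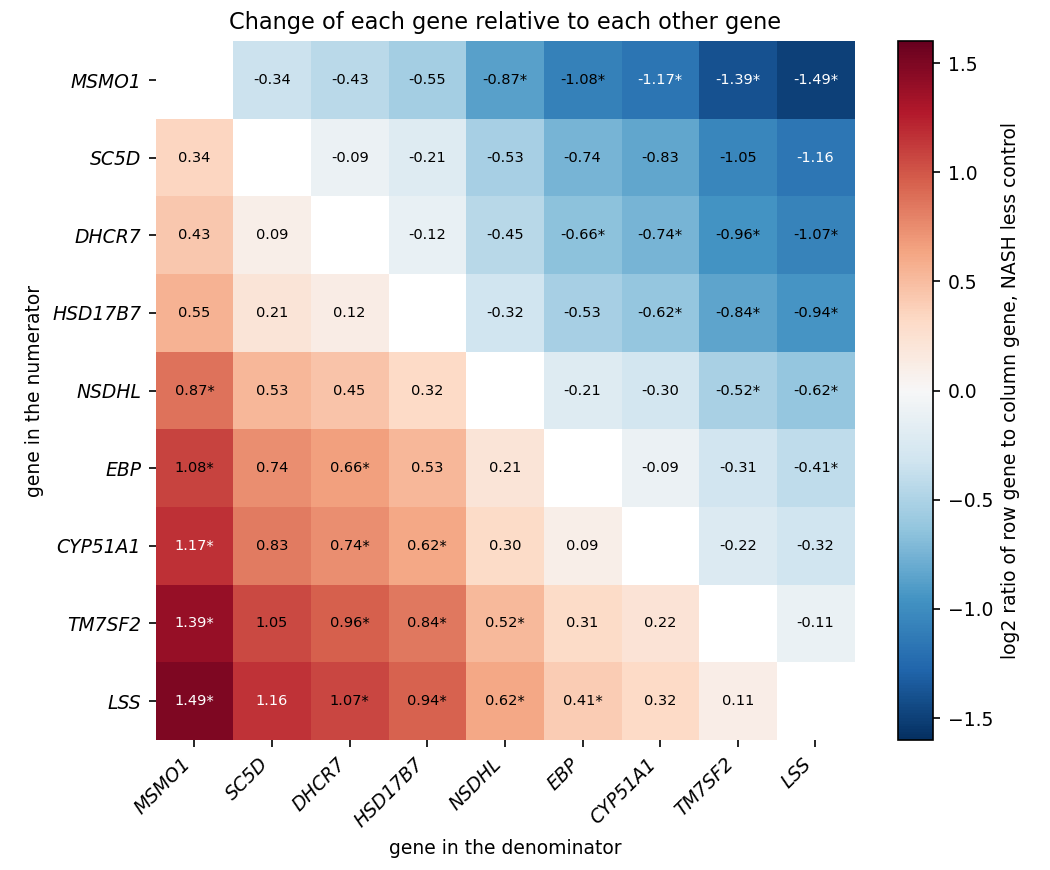
Change in the log2 ratio of the gene in the row to the gene in the column, NASH less control, with genes ordered from the largest to the smallest fall. Blue means that the row gene fell further, and asterisks mark an adjusted p-value under 0.05 over the 36 pairs. *LSS* has 5 asterisks, with *MSMO1*, *DHCR7*, *HSD17B7*, *NSDHL* and *EBP*, and *SC5D* has none.

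The genes upstream of lanosterol fell as well. Of 11 genes from *ACAT2* to *SQLE*, 10 were lower and none higher, and their median log2 fold change was −0.86. When only the library size was used, without TMM factors, 8 were lower and 1 (*GGPS1*) was higher. *SQLE*, which makes the epoxide that *LSS* closes, fell by 1.65 (SE 0.15, adjusted p = 1.67e-06 from edgeR), from 72.9 ± 17.7 to 23.2 ± 2.11 CPM (SD, n = 6 each), on a row shared with *ZNF572*. *FDFT1*, squalene synthase, fell by 1.76 (SE 0.14, adjusted p = 7.35e-07 from edgeR). *GGPS1*, which leads from the route into protein prenylation, had the value 0.14 (SE 0.16, adjusted p = 0.486 from edgeR). *MSMO1*, *SC5D*, *DHCR7* and *HSD17B7* each had a lower log2 fold change than all 11 upstream genes. So did *NSDHL* (−1.81, against −1.76 for *FDFT1*), but not in every setting. The order turned, for example, without control 45 (−1.62 against −1.67) and on the rlog values (−1.0 against −1.1). With limma-voom both were at −1.75. The ratio between the lists was not tested.

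**Figure D4:**
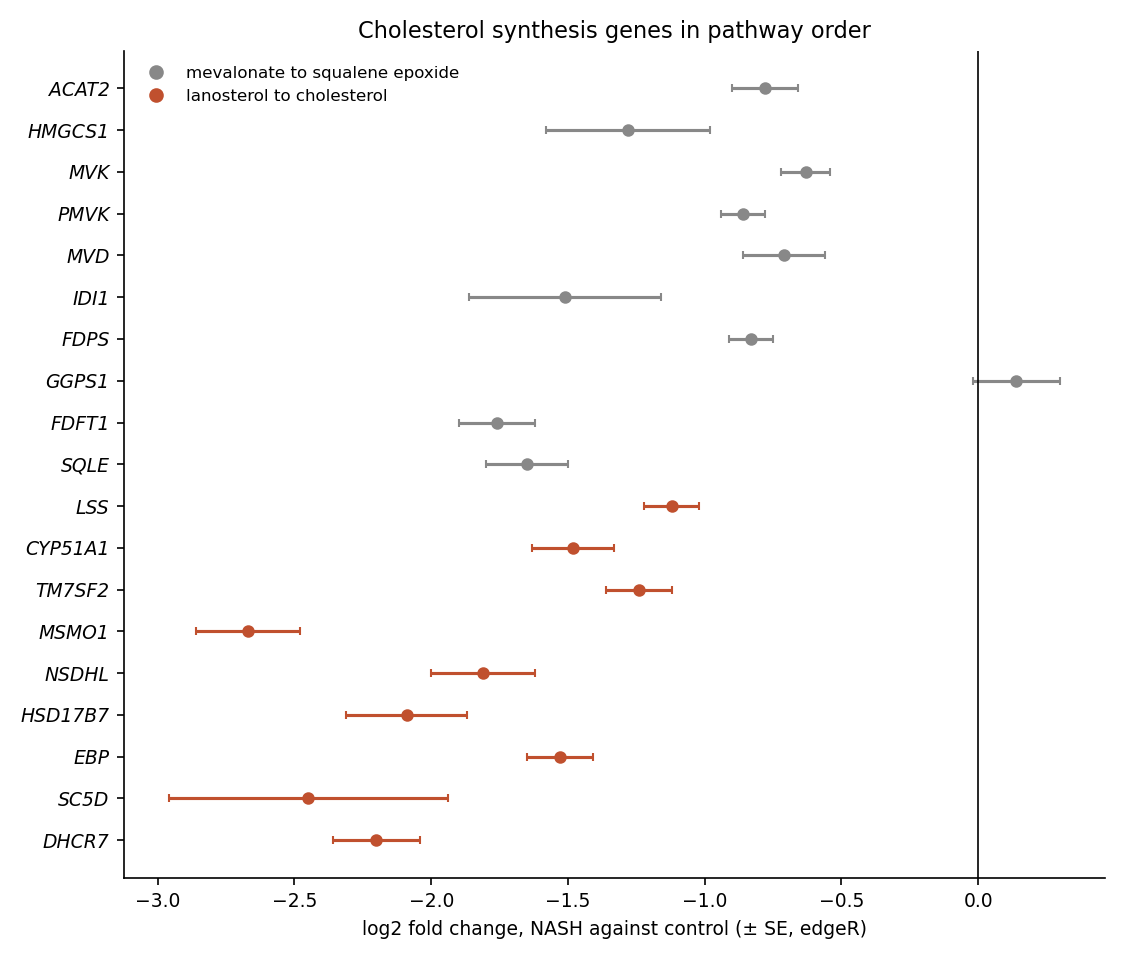
Log2 fold change of NASH against control (horizontal axis, points with ± SE from edgeR) of the cholesterol synthesis genes from *ACAT2* at the top to *DHCR7* at the bottom. The 9 genes from lanosterol onwards (red) lie between −2.67 and −1.12, and of the upstream genes (grey), of which 10 of 11 are drawn and 1 is not reported here, only *GGPS1* lies right of 0.

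Of 6 further enzymes and partners of the same steps, 5 were lower and none was higher (3 lower and 1 higher with library size alone). *FAXDC2*, of the same hydroxylase family as *MSMO1* and *SC5D*, fell by 1.39, and *EBPL*, a relative of *EBP*, by 1.47. *ERG28*, the scaffold of the demethylating complex, fell by 0.59, but with library size alone the value was −0.12 and did not pass the threshold. *TMEM97*, a sterol-binding relative of *EBP*, had the value 0.11 (SE 0.22, adjusted p = 0.7 from edgeR) and was low in both groups, at 3.46 ± 1.32 and 3.76 ± 0.521 CPM (SD, n = 6 each).

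*CYP51A1*, *MSMO1* and *SC5D* take electrons from reductases and cytochrome b5. Of 7 genes for such donors and their partners, 5 were lower and 1 was higher (3 lower and 2 higher with library size alone). *PGRMC1*, a haem-binding partner of P450 enzymes, fell by 1.13 (SE 0.09, adjusted p = 7.92e-07 from edgeR), *CYB5A* by 1.06 (SE 0.08, adjusted p = 3.96e-07 from edgeR) and *POR*, the P450 reductase, by 0.80 (SE 0.14, adjusted p = 3.31e-04 from edgeR). *CYB5R4* rose by 0.72 (SE 0.10, adjusted p = 6.4e-05 from edgeR).

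Of 11 genes of the SREBP pathway, 4 were lower and 4 higher (2 and 6 with library size alone). *SREBF2*, which encodes SREBP-2, ranged from 83.7 to 112.6 CPM in controls and from 42.2 to 65.1 CPM in NASH, so that the fitted difference was −0.91 in log2 (SE 0.11, adjusted p = 1.9e-05 from edgeR). *SREBF1* was higher instead, at 7.47 to 26.9 CPM in controls and 42.0 to 65.6 CPM in NASH (log2 fold change 1.70, SE 0.29, adjusted p = 2.84e-04 from edgeR). *INSIG1*, a sterol-dependent anchor of the SREBP complex and itself a target, fell from 291.5 ± 118.6 to 135.8 ± 29.8 CPM (SD, n = 6 each, adjusted p = 0.0023 from edgeR). *SCAP*, the sterol sensor that escorts SREBP, was at 33.1 ± 4.88 CPM in controls and 33.1 ± 3.77 CPM in NASH (SD, n = 6 each, adjusted p = 0.98 from edgeR), and with library size alone it was higher by 0.47.

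Of 7 genes of sterol uptake, 4 were lower and 3 higher (2 and 3 with library size alone). *STARD4*, a cytosolic sterol carrier, fell by 1.08 (SE 0.19, adjusted p = 4.31e-04 from edgeR). *LIPA*, the lysosomal acid lipase, rose by 1.43, and *NPC1*, the lysosomal cholesterol exporter, by 0.71 (SE 0.17 and 0.10, adjusted p = 2.1e-05 and 6.98e-05 from edgeR).

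Of 8 genes of the LXR pathway, which senses oxysterols, and of sterol export and storage, 4 were higher and 4 lower (4 and 1 with library size alone). *ABCA1*, an exporter of cholesterol to apolipoproteins, rose by 3.59 (SE 0.13, adjusted p = 3.54e-09 from edgeR), from 16.5 ± 2.58 to 199.9 ± 24.6 CPM (SD, n = 6 each). *ABCG1* rose by 2.49 and *MYLIP*, a ubiquitin ligase, by 1.68. *NR1H3*, which encodes LXR-alpha, fell by 1.24 (SE 0.12, adjusted p = 3.94e-06 from edgeR). Of 5 sterol hydroxylases, 2 were higher and 2 lower (2 and 1 with library size alone). *CYP7A1*, the rate-limiting enzyme of bile acid synthesis, was at 44.9 ± 20.8 CPM in controls and 45.2 ± 9.51 CPM in NASH (SD, n = 6 each, adjusted p = 0.989 from edgeR), while *CYP8B1* fell by 1.67. *CH25H* rose by 2.34, from 0.234 ± 0.109 to 1.17 ± 0.697 CPM (SD, n = 6 each).

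To see which genes varied with the set between animals of the same group, each rlog value was taken less its group mean, and every gene was compared over the 12 animals with the mean of the 9, each divided by its SD. This is a description without a test. The SD was taken over all 12 animals, and the 9 genes varied less in NASH than in controls. The controls, with animals 45 and 56 at the ends, therefore weigh more in r. Pearson's r of each gene with the mean of the other 8 ranged from 0.42 (*HSD17B7*) to 0.90 (*NSDHL*). Over all other genes, compared with the mean of the 9, the median was 0.00 and the 95th percentile 0.55. *HSD17B7* lay below that percentile, and *TM7SF2* and *SC5D* (0.57 each) were just above it. The 10 symbols with the highest r came from 8 count rows and were *CTSC* (0.92), *WDR45*, *PRAF2* and *AC231657.3* on a shared row (0.88), *FAM162A* (0.86), *ARSG*, *HAUS1* and *TMPRSS6* (0.85 each), *TRAP1* and *FDPS* (0.84 each). *FDPS*, the upstream farnesyl diphosphate synthase, was at rank 10 of 11887 genes, *TMEM97* at rank 28 (0.80) and *SQLE* at rank 55 (0.75). Not all upstream genes varied with the set, and r was −0.1 for *IDI1* and for *GGPS1* and 0.05 for *MVK*. When the values were ranked within each group before the same comparison, only 1 of the 10 symbols with the highest r was among the 10 highest. Their order is therefore not firm. The coefficient of the ranks was 0.85 for *FAM162A*, 0.63 for *CTSC* and 0.50 for *FDPS*. Its 95th percentile over all other genes was 0.51, so that *FDPS* lay just below it.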

How the data were processed

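The authors trimmed the reads with Trimmomatic 0.38.0, mapped them with HISAT2 2.1.0 to Cavpor3.0, ignored multimapped reads and quantified loci with StringTie 1.3.6. The authors deposited raw counts per locus, with no normalisation and no symbols, and log2 values (rlog of DESeq2) for 11896 human orthologue symbols with at least 200 counts over the 12 animals. The rlog transformation was repeated on the counts to tie every symbol to its count row, and recovered the deposited values to within 8e-07. The symbols came from 11031 rows, and 1515 symbols, 2 of the 9 genes among them, shared a row. Totals were 16980274 to 28636467 counts in controls and 23704607 to 33091460 in NASH, and TMM factors 0.804 to 0.875 and 1.116 to 1.241. This number of animals and this depth set the precision.

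Counts were tested in R 4.3.3 with edgeR 4.0.16 (quasi-likelihood, TMM, whole-table library size, threshold 0.05, adjusted over all symbols). The SE is the absolute log2 fold change over the square root of F. Log2 CPM used a prior count of 2. On simulated counts of 11031 genes for this comparison, edgeR recovered 95.5% of 200 genes changed 4-fold, and 3.05% of its calls were on unchanged genes. The simulation changed no other genes and built in no difference in TMM factors between the groups. In the data 53.9% of genes passed the threshold, so these shares do not measure the error there. Alternatives were other factors, DESeq2 1.42.0, limma 3.58.1, other row filters and thresholds, and each animal left out. Members and lists were chosen with earlier results of these data known. All members were named, with the extremes of each list other than some genes not reported here, further genes of the upstream and regulation lists, and the 10 symbols most like the set. The other genes of the lists named here, *SORL1* and the genes low with *SC5D* were chosen after their values were seen. No batch is named in the labels.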

Additional observations from a re-analysis of the deposited data

Results flagged for a closer look

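*SC5D* was the only member with an animal far from the rest of its group by Dixon's criterion (the gap to the nearest animal as a share of the group's range, against the 95% critical value for 6 animals), which was applied to 9 genes in both groups, in CPM and in log2 CPM. Chance flags about 1 in 20 such groups. In controls, animal 56 was at 5.16 log2 CPM and the other controls were between 8.13 and 8.85, so that the gap took 0.80 of the range. In NASH, animal 65 was at 3.86 log2 CPM and the others were between 5.64 and 6.26, with a gap of 0.74 of the range. In CPM neither animal passed the criterion.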

How the results depend on the processing

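All 9 genes stayed lower and past the threshold with RLE and upper-quartile factors, library size alone, DESeq2, limma-voom, limma on the rlog values, both other row filters, a threshold of 0.01 and each of the 12 animals left out. When an absolute log2 fold change above 1 was required by the test, 7 did, and *LSS* (adjusted p = 0.313 from edgeR) and *TM7SF2* (adjusted p = 0.0779 from edgeR) did not. Library size alone moved the median of all genes to 0.48 and of the 9 genes to −1.33, which is again 1.81 lower, and the split of all genes from 3318 higher and 3093 lower to 7603 higher and 911 lower. Under it *SCAP* turned to 0.47 past the threshold, *TMEM97* (0.59) and *GGPS1* (0.61) passed as higher, and *ERG28*, among others, no longer passed. Of 55 other genes of cholesterol metabolism, 48 passed the threshold, and between 46 and 48 without any single animal. With library size alone 39 passed. When tested for a change above 1, 11 did. Of all 11896 genes, 6411 passed the threshold, 8514 did with library size alone and 1100 passed the test for a change above 1. Relative to the hepatocyte markers *LSS* was at 0.00, and the unadjusted p-values of *CYP51A1*, *TM7SF2* and *SC5D* were also above 0.05. Of the 10 symbols most like the set, 1 remained with ranks taken within each group and 9 with log2 CPM or without *SC5D*. The cause of these changes was not tested. No paired analysis was possible because the animal numbers of the groups do not coincide.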

Other observations

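The fall of *SC5D* in control 56 and NASH 65 was looked for in other genes, after these values had been seen. Of 11529 genes with a mean of at least 1 CPM, 26 were below 50% of the median of the other animals of the group in both animals. *JUN*, a subunit of the transcription factor AP-1, was at 3.61% in control 56 and 17.1% in NASH 65. *SLC25A18*, a mitochondrial glutamate carrier, was at 11.7% and 18.6%, and *RC3H1*, which encodes the RNA-binding protein Roquin, at 29.6% and 14.3%. No member other than *SC5D* was among the 26.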
